A study of Mus musculus with 2 samples.

Results

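Fatty acid oxidation feeds the mitochondrion with acetyl-CoA from long-chain acyl groups, and acyl-CoA thioesterases release free fatty acids from the same acyl-CoA pool. The set described here holds 9 named genes of the 31946 genes and unnamed transcripts on the array. Probes were taken by the gene name in the scanner file of the wild-type array and read at the same spots of the ob/ob array, which gave 10 probes on 19 spots. The members are Cpt1a, the mitochondrial acyl-CoA dehydrogenases Acadvl, Acadl, Acadm and Acads, the trifunctional protein subunit Hadha, the pyruvate dehydrogenase kinase Pdk4, and the thioesterases Acot1 and Acot2. All 9 were well above background on both arrays, so no member was lost to a filter on low signals.

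RNA came from liver sinusoidal endothelial cells, which line the capillaries of the liver, of 1 ob/ob mouse and 1 wild-type (WT) mouse, each a male of 8 weeks. Animals of the ob/ob strain lack functional leptin from a mutation in the leptin gene and become obese. Cells of both animals were freed with collagenase and kept in serum-containing DMEM overnight before RNA was taken, so both groups share that culture step. Each RNA was labelled with Cy3 and hybridised to 1 array of an Agilent 1-colour mouse design, and the 2 arrays have no replicates. No test was therefore possible, no p-value is given, and each difference compares 2 libraries, not 2 genotypes.

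Signals are processed intensities in arbitrary units. Differences are log2 values, ob/ob minus WT, after each array was divided by the 75th percentile of its own signals, which was 1430 on the ob/ob array and 989 on the WT array. A gene was counted as higher or lower where it differed by at least 2-fold. On the ob/ob array 64.8% and on the WT array 58.6% of spots were well above background, and 18164 genes were measured on both, with a median difference of -0.12. Lep itself (signal 2.69 in ob/ob and 2.94 in WT cells) did not clear background anywhere, so it checks nothing about the genotypes. The scanner's error model put the SD of a single-spot difference at a median of 0.20, and the SD between probes of the same gene was 0.33. Neither holds the spread between animals. Coordinates are those of the probes, and the exon or UTR each probe lies in was not analysed here.

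As background, long-chain acyl-CoA crosses the mitochondrial membranes as acylcarnitine, and Cpt1 makes that ester at the outer membrane, a step that malonyl-CoA inhibits. The acyl-CoA dehydrogenases then start each turn of beta-oxidation on chains of falling length, Acadvl and Acadl on long, Acadm on medium and Acads on short ones. Nuclear receptors of the PPAR family, activated by fatty acids, are known to raise Cpt1a, Acadm, Pdk4, Acot1 and Acot2 in liver and other tissues, and endothelial cells are known to oxidise fatty acids through Cpt1a.

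The 9 genes did not move as a block. Acot2, Acot1 and Cpt1a were at least 2-fold higher in ob/ob cells, Acads was at least 2-fold lower, and the other 5 lay within 2-fold. The 3 higher members stand against 5.81% of all genes measured on both arrays that were at least 2-fold higher, and the 1 lower member against 2.30% that were at least 2-fold lower. The median of the 9 was 0.46. Of the signed differences 5 were positive and 4 negative, where the median over all genes was -0.12. The signs of Acot2 and Pdk4 changed over the scalings.

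**Figure D1:**
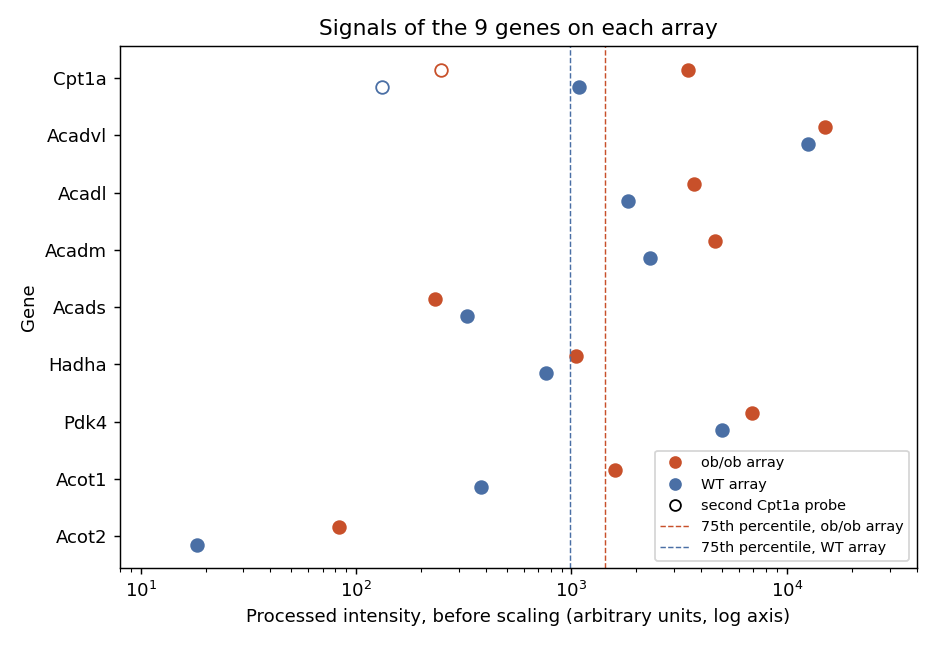
Processed intensity of each gene (log axis, arbitrary units, before scaling) on the ob/ob array (upper point of each pair) and the WT array (lower point), with the 75th percentile of each array as a dashed line; Cpt1a is shown by the mean of its repeat spots, and open points are its second probe. Acads is the only gene of the 9 whose unscaled signal was lower on the ob/ob array (232 against 328).

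Cpt1a, the gatekeeper of mitochondrial import, had 10 repeat spots of 1 probe (chr19:3385374-3385433, mm9). They gave 3340 to 3550 in ob/ob cells and 1065 to 1117 in WT cells. Before scaling, all 10 spots were thus brighter on the ob/ob array, but that array was brighter as a whole. Its 75th percentile was 1430, against 989 on the WT array. The 10 spots are repeats of 1 oligo on 1 array per genotype, so their spread is spot noise and holds no spread between animals. The mean difference was 1.15 (2.21-fold), with an SD of 0.03 over repeat spots and a range of 1.08 to 1.20. A second Cpt1a probe, whose start lies 1314 bases before that of the repeated probe (chr19:3384060-3384119, mm9), gave signals of 247 in ob/ob and 132 in WT cells. Its difference was 0.37, and the mean over both probes was 0.76, so the count of Cpt1a among the 2-fold genes rests on the brighter probe. The first 30 bases of each 60-base probe are shown because the 2 oligos read different stretches of the same gene.
Cpt1a repeated probe: tcttaggactacttgctaacctctgttact
Cpt1a second probe: acagtcccccgaagtcttttgaatcggctc

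The dehydrogenases split by sign. Acadm (chr3:153585670-153585729, mm9), which acts on medium chains, had signals of 4620 in ob/ob and 2320 in WT cells, a difference of 0.46. Acadl (chr1:66877673-66877732), which acts on long chains, had 3700 and 1835 in ob/ob and WT cells, a difference of 0.48. Both lay above the median of all genes and inside the 2-fold band. Acadvl (chr11:69823722-69823781), the very-long-chain enzyme, had 15000 in ob/ob and 12518 in WT cells, a difference of -0.27, or 0.00 after centring on the level, where bright probes as a whole ran lower in ob/ob cells.

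Acads, the short-chain enzyme, had a signal of 232 in ob/ob and 328 in WT cells. Its difference was -1.03 (2.05-fold lower), just past the 2-fold line, and ranged from -1.31 to -0.77 over the processing settings. It was read by 1 spot (chr5:115560887-115560946, mm9), and the error model gave its difference an SD of 0.21. Its probe begins with the 30 bases below, shown because the only lower member depends on this single oligo.
Acads probe: cgcatcactgagatctacgaagggaccagc

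Hadha (chr5:30446215-30446274, mm9) encodes the alpha subunit of the trifunctional protein, which hydrates and dehydrogenates long-chain intermediates. It had 1050 in ob/ob and 761 in WT cells, a difference of -0.07. Its partner Hadhb, the thiolase subunit, differed by -0.09. Pdk4 (chr6:5433441-5433500) phosphorylates and switches off pyruvate dehydrogenase, which spares glucose when fat is burnt. Its signal was 6890 in ob/ob and 5011 in WT cells, a difference of -0.07. The differences of Hadha, Hadhb and Pdk4 were smaller than the error model's SD of 0.20.

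**Figure D2:**
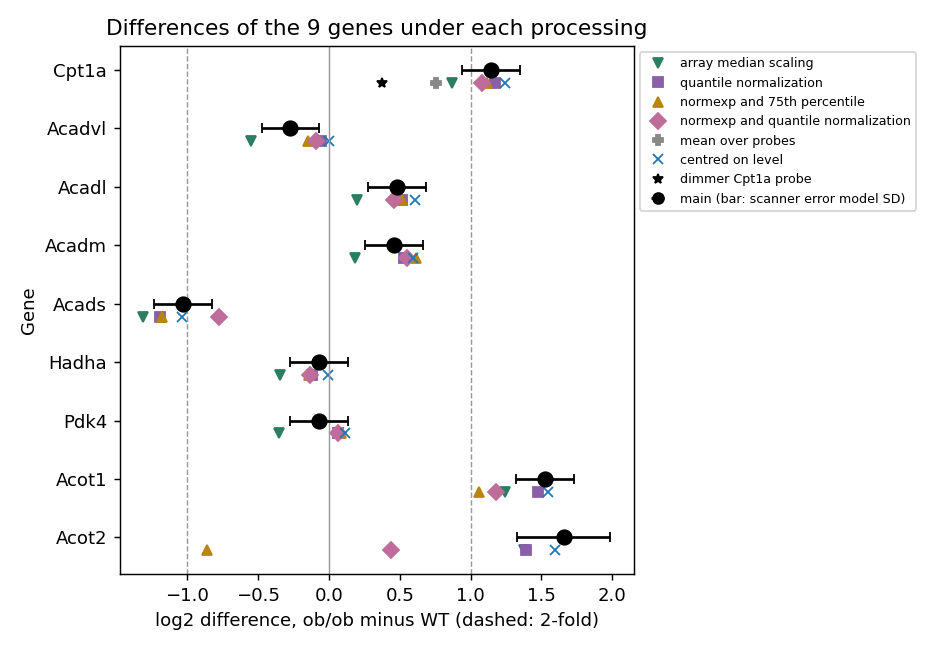
The log2 difference, ob/ob minus WT, of each gene with the main processing (black, bar: SD of the scanner's error model) and with the other scalings, background corrections and probe choices (other symbols); dashed lines mark 2-fold. Acot1 stays above the 2-fold line under every setting drawn, while Acot2 runs from 1.66 to -0.86 and Cpt1a from 1.24 down to 0.37 for its second probe.

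Acot1 and Acot2 had the largest differences among the members with the 75th percentile, but not in every setting. With array median scaling and with normexp and the 75th percentile, Acads (-1.31 and -1.18) was larger in size than Acot1. With normexp and quantile normalization, Acot2 (0.44) was smaller than Cpt1a (1.08). Acot1 (chr12:85358561-85358620, mm9), a cytosolic enzyme that frees long-chain fatty acids, had a signal of 1590 in ob/ob and 382 in WT cells. Its difference was 1.53 (2.88-fold), and it stayed between 1.06 and 1.55 over the settings. Acot2 (chr12:85334071-85334130), the mitochondrial enzyme, had 83.3 in ob/ob and 18.2 in WT cells, a difference of 1.66 (3.16-fold) with an error model SD of 0.33. Its WT signal lay near the dimmest spot well above background on that array, 12.3. Normexp background correction, which adds an offset of 50 to every signal, gave an Acot2 difference of -0.86 with the 75th percentile. With quantile normalization it gave 0.44, so the direction of Acot2 is not settled. Normexp with the 75th percentile also called 3823 of all genes lower, against 417 with the main processing. Why the Acot2 difference changed sign was not tested.

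Acot1 and Acot2 belong to a cluster of related genes in which close paralogs sit side by side, and the probes of Acot1 to Acot6 spanned 118 kb (chr12:85334071-85452010, mm9). In the order along the chromosome, Acot2, Acot1 and Acot4 had differences of 1.66, 1.53 and 1.62. Acot4, a peroxisomal thioesterase in mouse, had signals of 104 in ob/ob and 23.3 in WT cells. The next 3 genes, Acot3, Acot5 and Acot6, had differences of -0.19, 0.07 and -0.59 by their brightest probes. Second probes of Acot5 and of Acot6 were measured in ob/ob cells only, and with the 75th percentile both were higher there. That of Acot5 had signals of 55.9 in ob/ob and 9.78 in WT cells, at least 3.13-fold higher. That of Acot6 had signals of 26.8 in ob/ob and 6.06 in WT cells, with a lower bound under 2-fold. Whether Acot5 lies within 2-fold, and the sign of Acot6, thus depend on the probe chosen with the 75th percentile. The other scalings were not examined for either second probe. With normexp and the 75th percentile Acot4 was -0.58, and like Acot2 its sign is not settled.

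The first 30 bases of the brightest probe of each gene, in order along the chromosome, show how far the oligos differ. Capitals mark the longest run also found in the brightest probe of another gene of the 6. Over the whole 60-base probes no run longer than 9 bases was shared between genes. Whether a probe also binds transcripts of a paralog was not tested.
Acot2: ggggaaacctcATATATATtatcacaatgt
Acot1: tctatGGAAACtggagctatccaagaaaag
Acot4: tgctggatgACATGAAattcatgtttaggg
Acot3: gtgtacacacacACATATacacacaagcac
Acot5: cGCTGGtcctgttcccctgagaattaggat
Acot6: caagccagtagctttcacttcTCTTTTctc

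**Figure D3:**
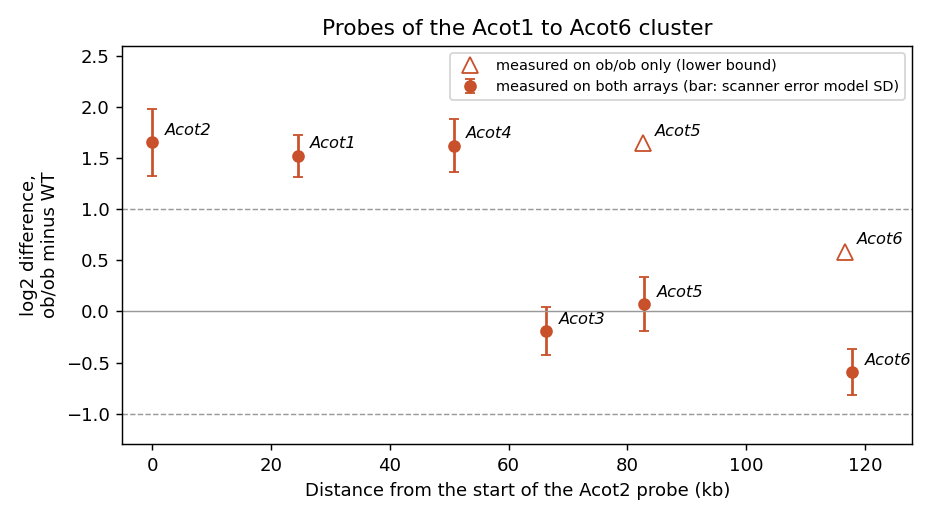
The log2 difference, ob/ob minus WT, of the measured Acot1 to Acot6 probes by distance from the start of the Acot2 probe (kb); bars are the SD of the scanner's error model, and open triangles are lower bounds, with the 75th percentile, for probes measured on the ob/ob array only. Acot2, Acot1 and Acot4 lie between 1.53 and 1.66, and the brightest probes of Acot3, Acot5 and Acot6 between -0.59 and 0.07.

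In the wider thioesterase list, 13 of 16 genes were measured on both arrays. Of these 3 were higher (Acot1, Acot2 and Acot4), 0 lower and 10 within 2-fold. The median was 0.07, beside -0.12 over all genes. Acot7, a cytosolic long-chain thioesterase, differed by 0.89. Acot9 and Acot13, mitochondrial enzymes with the brightest probes of the list, differed by -0.57 and -0.42. Acot12, Them5 and Baat were above background on neither array. With normexp and the 75th percentile the list had 1 higher, 3 lower and a median of -0.58.

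Around Cpt1a, the carnitine shuttle had 7 of 8 genes measured on both arrays, and Cpt1a was the 1 gene beyond 2-fold. The inner-membrane partner Cpt2 differed by -0.05 with its brightest probe and by 0.43 with the other. The carnitine-acylcarnitine carrier Slc25a20 differed by 0.35, and the muscle form Cpt1b by -0.33 with its brightest probe and 0.38 with the other. Crat was above background on the ob/ob array only, with no bound above 1-fold. The median of the shuttle was -0.05.

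All 23 genes of the mitochondrial beta-oxidation list were measured on both arrays. Of these 0 were higher, 1 lower (Acads) and 22 within 2-fold, with a median of -0.05 and a range of -1.03 to 0.60. The largest positive value was that of Hadh, the short-chain hydroxyacyl-CoA dehydrogenase, at 0.60. Etfb, an electron carrier subunit that takes electrons from the dehydrogenases, differed by 0.18.

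Peroxisomes shorten very long and branched chains. Of 14 genes measured on both arrays 1 was higher, Phyh at 1.49, with signals of 1350 in ob/ob and 332 in WT cells. Phyh hydroxylates phytanoyl-CoA at the start of alpha-oxidation. The thiolase Acaa1a differed by 0.20. Acox2, an oxidase of branched chains and bile acid precursors, was measured in ob/ob cells only, where it was at least 3.36-fold higher, but over the scalings its difference ran down to -1.01, so its direction is not settled. The median was 0.10, and -0.18 with array median scaling.

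Acyl-CoA synthetases supply the substrate of Cpt1. Of 12 measured on both arrays 2 were higher, Slc27a5 at 2.85 and Slc27a2 at 2.33, and 0 lower, with a median of 0.53. Slc27a5 activates bile acids and very long chains in hepatocytes, and its 2 probes gave 2.85 and 3.38. Slc27a2, a very-long-chain synthetase, had the same sign under every scaling, from 1.18 to 2.33. Acsl4 and Acsl5, the brightest of the list, differed by 0.41 and 0.20, and Acsl1 by 0.67. Acsm1 and Acsm3, measured in ob/ob cells only, were higher there by at least 1.96-fold and at least 1.79-fold, but both were negative under at least 1 other scaling (Acsm3 down to -1.36), so their direction is not settled. With normexp and the 75th percentile the synthetase median was -0.15.

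In the list of pyruvate dehydrogenase kinases, phosphatases and complex subunits, 11 genes were measured on both arrays, with a median of 0.01. The kinase Pdk1, known as a target of hypoxia-inducible factor, was the 1 higher gene at 1.60 (signals 688 in ob/ob and 157 in WT cells). It ran down to 0.64 over the scalings, and the list had 0 higher genes under both normexp settings. The other kinases Pdk2, Pdk3 and Pdk4 differed by -0.30, 0.44 and -0.07, and the bright subunits Pdhb and Dld by -0.27 and 0.01. Pdpr, measured in ob/ob cells only, was higher there by at least 1.14-fold, but ran down to -1.62 over the scalings.

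Of 18 measured regulators of fatty acid oxidation 0 were higher and 1 lower, with a median of -0.18. The lower gene was Lpin1, a phosphatidate phosphatase and coactivator of PPARs, at -1.45 (signals 325 in ob/ob and 615 in WT cells). The receptor Ppara differed by 0.00 by its brightest probe, Ppard by -0.74 and Pparg by 0.61. Another Ppara probe, measured in ob/ob cells only, was at least 1.47-fold higher there, and its last probe was above background on neither array. Rxrb and Sirt1, the brightest of the list, differed by -0.66 and -0.55. Ppargc1b was above background on neither array.

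A list of known PPAR targets shares 5 of the 9 members and was chosen with earlier results of these arrays in view. It had 8 of 17 measured genes higher and 0 lower, beside 5.81% and 2.30% of all genes. Of the 8 higher genes, Cpt1a, Acot1 and Acot2 are members already counted above. Its median was 0.998, while normexp with the 75th percentile gave 0.17 and 5 higher genes. Angptl4, a secreted inhibitor of lipoprotein lipase, had signals of 35900 in ob/ob and 2579 in WT cells, a difference of 3.27. Fabp1, a liver fatty acid carrier that is also a hepatocyte marker, differed by 2.59 and Creb3l3 by 2.34 (down to 0.36 over the scalings). Cyp4a10 differed by 1.65 with its brightest probe, or -0.40 with normexp and the 75th percentile. The other Cyp4a10 probes, measured in ob/ob cells only, were at least 6.56-fold and at least 1.56-fold higher there with the 75th percentile. Plin2, which coats lipid droplets, had 79000 in ob/ob and 27353 in WT cells, a difference of 0.998. The bright endothelial fatty acid carrier Fabp4 differed by 0.01. Cyp4a14, an omega-hydroxylase, was at least 56.6-fold and Vnn1 at least 2.16-fold higher in ob/ob cells, and neither was measured in WT cells. Over the scalings the Cyp4a14 difference ran down to 1.73, and that of Vnn1 to -1.27, so the direction of Vnn1 is not settled.

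**Figure D4:**
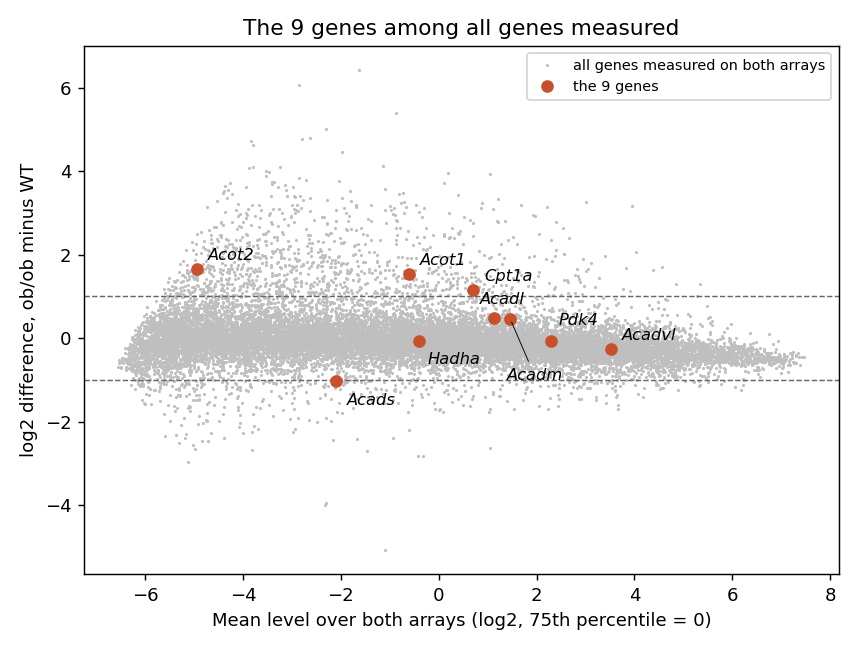
Difference (log2, ob/ob minus WT) against mean level over both arrays (log2, with the 75th percentile at 0) for the 18164 genes measured on both arrays (grey) and the 9 genes (coloured). Cpt1a, Acot1 and Acot2 lie above the upper 2-fold line at 1.15, 1.53 and 1.66, and Acads lies at the lower one at -1.03.

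Markers of other liver cells were higher on the ob/ob array beside these values. Hepatocyte markers had 17 of 20 measured genes higher and 0 lower, with a median of 2.50 and a summed level, in units of the 75th percentile, of 58.7 in ob/ob and 10.6 in WT cells. Serpina1a, Trf and Alb, the brightest, differed by 2.01, 2.64 and 3.15, while Cps1 and Tdo2 were above background on neither array. Kupffer cell and macrophage markers had 11 of 15 higher (median 1.51, summed level 157 in ob/ob and 62.6 in WT), and the brightest by mean level over both arrays were Marco at 1.29, Cd5l at 1.31 and Csf1r at 1.002, whose other probes gave 1.34 and 0.02. Stellate cell and fibroblast markers had 11 of 12 higher (median 2.05, summed level 40.4 in ob/ob and 10.4 in WT), with Dcn at 2.05, Tagln at 1.41 and Hgf just over 2-fold. Of 4 measured cholangiocyte markers 3 were higher (summed level 5.47 in ob/ob and 0.54 in WT), namely Spp1 at 3.73, Krt18 at 2.81 and Krt8 at 2.90. Lymphocyte markers had 0 of 4 beyond 2-fold, with summed levels of 0.62 in both, and Nkg7, Cd4 and Cd3e at -0.19, 0.17 and 0.19. Another 3 lymphocyte markers were measured in ob/ob cells only, Gzmb at least 8.80-fold, Cd3d at least 6.44-fold and Cd3g at least 2.01-fold higher there, and over the scalings their differences ran down to -0.11, -0.47 and -1.41. All 18 sinusoidal and pan-endothelial markers were measured and within 2-fold (median -0.23, summed level 276 in ob/ob and 372 in WT), with Egfl7, Cdh5 and Fcgr2b at -0.58, -0.44 and -0.22. Under normexp scaled on the 75th percentile, stellate cell markers had 4 higher and a median of 0.71, hepatocyte markers 13 higher, 2 lower and a median of 1.60, and macrophage markers 10 higher and a median of 1.09. The part of these other cells in the differences of Cpt1a, Acot1, Acot2, the synthetases and the PPAR targets was not tested. In such bulk RNA, fewer cells of a type and less RNA per cell cannot be told apart.

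**Figure D5:**
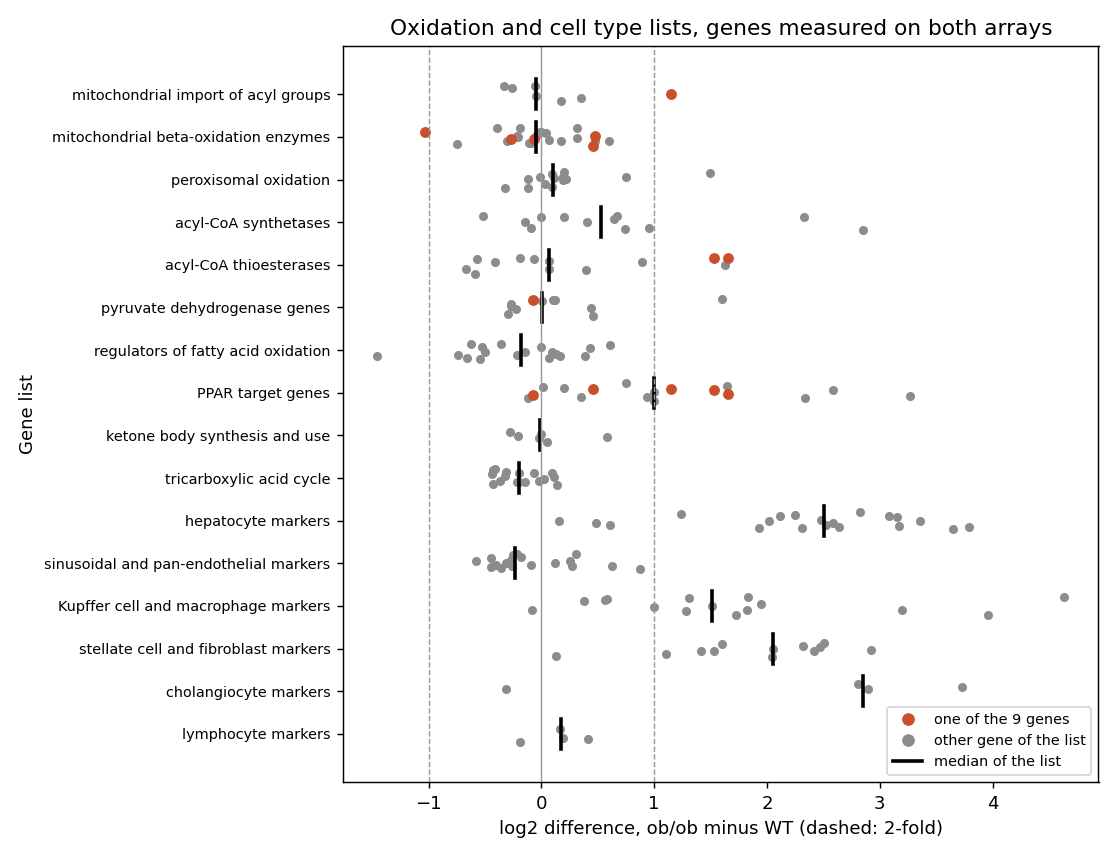
The log2 difference, ob/ob minus WT, of every gene measured on both arrays in the oxidation lists (top) and the cell type marker lists (bottom), with black bars at list medians and the 9 genes coloured. The mitochondrial beta-oxidation list is centred at -0.05 with a range of -1.03 to 0.60, while hepatocyte markers are centred at 2.50.

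Promoters of the 3 higher members were read because PPAR and its partner RXR bind repeats of the hexamer AGGTCA. The window ran from 250 bases before to 50 bases after each gene's start in RefSeq (build GRCm38.p6), on both strands, and all 9 members matched by symbol. The hexamer repeated in the same direction after 1 base was in 0 of the 9 windows and in 0.0396% of 32851 windows. Only exact copies in this window were counted. At so low a share, 0 of 9 says nothing about PPAR binding at these genes. A single AGGTCA was in 3 of the 9, Cpt1a, Acadm and Acadvl, and in 16.3% of all windows. Of the higher members it was thus in Cpt1a and in neither Acot1 nor Acot2. The 250 bases before the start are shown, with AGGTCA or its reverse complement in capitals.
Cpt1a, chr19:3323051-3323300, + strand: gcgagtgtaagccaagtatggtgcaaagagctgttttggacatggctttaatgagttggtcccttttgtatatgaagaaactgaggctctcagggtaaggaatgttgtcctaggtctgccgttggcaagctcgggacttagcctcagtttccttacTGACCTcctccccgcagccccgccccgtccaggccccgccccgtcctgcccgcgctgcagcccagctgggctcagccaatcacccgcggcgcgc
Acot1, chr12:84009252-84009501, + strand: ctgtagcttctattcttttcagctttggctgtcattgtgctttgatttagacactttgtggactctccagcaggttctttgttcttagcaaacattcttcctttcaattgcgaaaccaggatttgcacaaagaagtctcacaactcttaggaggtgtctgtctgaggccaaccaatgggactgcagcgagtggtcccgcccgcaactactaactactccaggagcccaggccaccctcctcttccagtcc
Acot2, chr12:83987611-83987860, + strand: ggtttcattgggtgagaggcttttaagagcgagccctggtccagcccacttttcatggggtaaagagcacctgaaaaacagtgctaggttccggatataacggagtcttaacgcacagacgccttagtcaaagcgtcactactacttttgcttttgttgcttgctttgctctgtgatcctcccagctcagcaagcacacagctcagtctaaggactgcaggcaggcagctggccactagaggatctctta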

How the data were processed

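RNA of 1 ob/ob and 1 WT preparation was measured on Agilent 1-colour arrays (probe coordinates on mm9, per the file headers). The deposited files hold spot intensity, which Agilent Feature Extraction 11.0.1.1 corrected for background and spatial trends without scaling the arrays to each other, per the file headers. The version is from the submitters' processing notes. The ob/ob file gives signals with 3 digits. The authors' deposited table is the ratio of that intensity to a 75th percentile of the same array, as 24868 features at a near constant factor (range 1.42% of the median for ob/ob and 0.978% for WT) showed. Its column medians are 0.648 for ob/ob and 0.614 for WT, and its scale, centring and direction are settled.

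Here, 43020 non-control spots were used, and spots marked non-uniform or population outlier were dropped (120 on the ob/ob and 148 on the WT array). No spot was saturated. Values are log2 of the signal over the array's 75th percentile, averaged over spots of a probe. A gene was represented by its brightest probe and counted as measured where over 50% of its spots were well above background. An "at least" fold sets the brighter signal against the higher of the dimmest well-above-background signal of the other array (12.3 on WT, 11.7 on ob/ob) and the probe's own signal there. Centring on the level subtracts the median difference in 20 bins of mean level. Symbols were updated through RefSeq accessions for 26160 of 39429 probes and otherwise kept from the file. Normexp started from the mean spot signal and the local background, not from the processed signal. It used limma 3.58.1 in R 4.3.3, and the rest Python 3.11.15. The gene summary was tested on simulated data.

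Named are all members, of each oxidation list the genes beyond 2-fold (at most 4 each way), up to 3 bounds and the 2 brightest, and of each marker list the 3 brightest. Genes named beside these for their role (Hadhb, Slc25a20, Cpt1b, Hadh, Acsl1, Acot3, Acot5, Acot6, Acot7, Ppara, Ppard, Pparg, Pdk2, Pdk3) or as not above background (Crat, Acot12, Them5, Baat, Ppargc1b, Cps1, Tdo2) were added after their values were seen, as was the look at chromosomal order. With 2 arrays no gene could be named for a like pattern. The members and lists were chosen with earlier results of these data known. Some genes that this rule names are not reported here. The number of arrays limits the precision.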

Additional observations from a re-analysis of the deposited data

How the results depend on the processing

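Scaling on the array median moved the median of all genes by -0.28, normexp with the 75th percentile by -0.17, and the other planned settings by less than 0.1. The median of the 9 members was 0.18 with array median scaling and 0.083 with normexp and the 75th percentile. Acads left the count of lower members with normexp and quantile normalization, which gave 0 (Acads at -0.77). Cpt1a left the count of higher members with array median scaling (0.87) and with the mean over its probes (0.76), and its second probe alone gave 0.37. Acot2 was -0.86 with normexp and the 75th percentile, and the cause was not tested. Over all genes, array median scaling gave 981 lower. Normexp with the 75th percentile gave 369 higher and 3823 lower, and normexp with quantile normalization 508 higher and 130 lower. Keeping dim probes gave 2682 higher and 1636 lower, with more genes counted. Acot1 stayed at least 2-fold higher in all 10 settings. Of 16 list medians 10 changed sign under at least 1 other setting, all of them under 1 in size with the 75th percentile. The 6 that kept their sign were those of the PPAR targets, the regulators and the hepatocyte, macrophage, stellate and cholangiocyte markers. Centring on the level and the second Cpt1a probe were chosen after seeing the data. No paired analysis was possible because each genotype has 1 array. Genes near background, such as Acot2 and Acot4, are limited by their signal.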

Other observations

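The tricarboxylic acid cycle, which burns the acetyl-CoA that beta-oxidation makes, had all 17 genes of its list measured and within 2-fold. Their median was -0.20, close to the -0.23 of the endothelial markers and beside -0.12 over all genes, and 0.06 both after centring on the level and with quantile normalization. The brightest, Mdh2 and Sdhb, differed by -0.43 and -0.20. Of ketone body genes, 0 of 6 measured on both arrays lay beyond 2-fold, with a median of -0.01 and Aacs at -0.01.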
